A study of Mus musculus with 8 samples.

Results

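The vascular endothelial growth factor (VEGF) family was followed here through 9 genes, the ligand genes Vegfa, Vegfb, Vegfc and Pgf, the receptor genes Flt1, Kdr and Flt4, and the co-receptor genes Nrp1 and Nrp2. They were found by gene symbol in the platform annotation, without use of their values, and made up 9 of the 17097 genes measured. These 9 genes had 15 probe sets, and each gene was read from the probe set that was brightest on average across all 8 arrays. RNA came from tumour cells of mouse skin squamous cell carcinoma (SCC), a cancer of keratinocytes, and was hybridised to Affymetrix arrays to compare cancer stem cells before and after progression.

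The tumours arose in K14-HPV16 mice of an FVB/C57/Bl6 background, either spontaneously or after DMBA and TPA, and the labels do not say which lineage had which origin. In these mice the keratin 14 promoter drives papillomavirus genes in basal keratinocytes, so every group carried the transgene. Tumours were grafted orthotopically into immunodeficient nude mice and passed on serially until well differentiated SCC (WD-SCC) had become poorly differentiated (PD/S-SCC in the titles, shortened here to PD-SCC). Dissociated cells were depleted of haematopoietic and endothelial cells and sorted for surface α6-integrin and CD34. Both stages of 3 lineages were measured. OT7 had 2 arrays per stage, and OT14 and OT15 had 1, which gave 4 WD-SCC arrays and 4 PD-SCC arrays. Per the series design, a lineage descends from 1 individual tumour. The labels call the arrays biological replicates without naming separate tumours, so the p-values here reflect how much these samples vary, and that variation may be technical. One OT7 WD-SCC array carries no number in its label and is called the first.

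VEGF ligands are secreted proteins that bind receptor tyrosine kinases, and this signalling drives the growth of blood and lymphatic vessels. VEGFA acts mainly through VEGFR2, the product of Kdr, while VEGFB and placental growth factor (the product of Pgf) bind VEGFR1, the product of Flt1, and VEGFC acts through VEGFR3, the product of Flt4, on lymphatic endothelium. Neuropilins carry no kinase of their own and bind both VEGFs and class 3 semaphorins. In skin tumours, Vegfa is made by the tumour keratinocytes, and neuropilin 1 on tumour cells has been described as a receptor through which VEGFA acts on the tumour cells themselves.

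Values are the authors' log2 expression values, with array medians of 3.66 to 3.77. The highest bacterial control probe set without a spike read 3.82 to 4.37 on the WD-SCC arrays and 3.61 to 3.81 on the PD-SCC arrays, and a value at or under it is called not above background. A nonspecific control of high GC content read 6.66 to 7.08 on PD-SCC arrays and above these, up to 8.53, on WD-SCC arrays, and its part in the results was not tested. Of the markers used in the sort, Itga6 (α6-integrin) was above background on all 8 arrays. Cd34 was above it on 7 arrays, and on the OT15 WD-SCC array it read 3.58, which goes against the sort, so results are also given without that array. Leaving out 1 array of OT14 or OT15 leaves the fit the same as leaving out the lineage. Probe sets differ in how they respond, so levels of different genes are not set against each other.

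Between the stages, 1 of the 9 genes passed the threshold, an adjusted p under 0.05 by limma with the lineage blocked. It was Nrp2, which rose in PD-SCC, and no member fell. Among all genes 12.6% passed, 7.78% higher and 4.81% lower in PD-SCC, so a count of 1 in 9 is near the background. The 4 arrays of each stage did not overlap for 2 members, Nrp2 and Flt4, against 24.1% of all genes. The median difference of the 9 genes was -0.49, against -0.06 over all genes. Before adjustment 6 of the 9 genes had p under 0.05, against 31.9% of all genes, and these were Vegfa, Vegfb, Vegfc, Pgf, Flt4 and Nrp2. In 7 of the 9 genes the difference had 1 sign in all 3 lineages, against 51.3% of all genes, and Flt1 and Nrp1 were the exceptions. Scaling the arrays to a common 75th percentile turned the split of all calls from 1331 higher and 823 lower to 1150 and 1205, and cyclic loess to 799 and 930. The 75th percentile scaling also moved the median over all genes to -0.21.

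**Figure D1:**
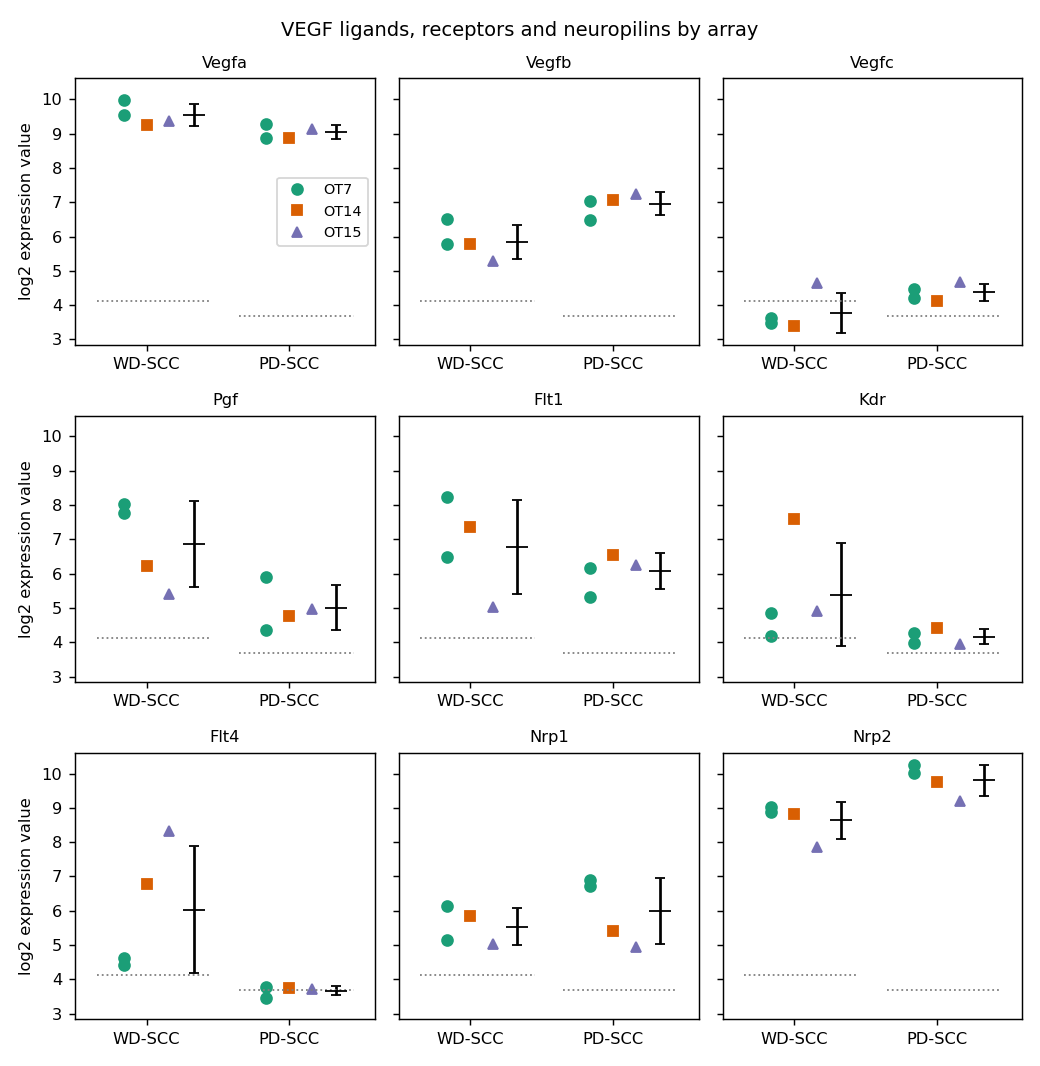
Log2 expression value (y axis) of each of the 9 genes on the 4 WD-SCC and 4 PD-SCC arrays (x axis), coloured by lineage, with the stage mean ± SD in black; the dotted line is the stage's mean highest unspiked control. The Nrp2 arrays of PD-SCC lie above those of WD-SCC, the Flt4 arrays of PD-SCC lie at the dotted line, and the other 7 genes overlap between the stages.

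Nrp2 encodes neuropilin 2, a co-receptor for VEGFC and for semaphorin 3F that is best known from lymphatic vessels and neurons. On the WD-SCC arrays it read 9.03 and 8.89 in OT7, 8.81 in OT14 and 7.85 in OT15. On the PD-SCC arrays it read 10.01 and 10.26 in OT7, 9.75 in OT14 and 9.19 in OT15. Every PD-SCC array was higher than every WD-SCC array, and within each stage OT7 was highest and OT15 lowest. The means were 8.64 ± 0.54 and 9.80 ± 0.45 (SD, n = 4 each). The difference was 1.16 ± 0.12 (SE; 95% interval 0.87 to 1.44; adjusted p = 0.0056, limma), a level 2.23-fold higher in PD-SCC. The lineages OT7, OT14 and OT15 rose by 1.17, 0.94 and 1.35. The rise was 1.09 without OT15 (adjusted p = 0.0208, limma). Without OT7, which leaves 4 arrays, it was 1.14 and did not pass (adjusted p = 0.103, limma). With the lineage left out of the model it just missed the threshold (adjusted p = 0.0531, limma).

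Nrp1 encodes neuropilin 1, the co-receptor of VEGFA and semaphorin 3A. In WD-SCC it read 5.13 and 6.14 in OT7, 5.84 in OT14 and 5.03 in OT15. In PD-SCC it read 6.89 and 6.73 in OT7, 5.42 in OT14 and 4.94 in OT15. The PD-SCC arrays of OT7 were the highest of all, while OT14 and OT15 were a little lower in PD-SCC than in WD-SCC, so the stages overlapped. The stage difference was 0.46 ± 0.38 (SE; 95% interval -0.47 to 1.39; adjusted p = 0.434, limma). OT7, OT14 and OT15 differed by 1.17, -0.43 and -0.09. Without OT7 the direction of the stage difference turned, to -0.26. It was 0.75 without OT14, 0.64 without OT15 and 0.11 without the first OT7 WD-SCC array. The interval still holds a rise as large as that of Nrp2, and the difference between Nrp1 and Nrp2 was not tested.

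The upstream sequences of Nrp2, Vegfb and Flt4 are shown because Nrp2 is the member that passed the threshold, while Vegfb and Flt4 had the next smallest adjusted p in each direction. Each is the 250 bases before the gene's annotated start in RefSeq (GRCm38.p6), on the strand of the gene. They lie at chr1:62703067-62703316 (plus strand) for Nrp2, chr19:6987652-6987901 (minus strand) for Vegfb and chr11:49609429-49609678 (plus strand) for Flt4. Each lies just outside its gene's annotated span. Capitals mark the GC box GGGCGG and the hypoxia-response cores ACGTG and GCGTG on either strand, and matches that adjoin or overlap run together.
Nrp2: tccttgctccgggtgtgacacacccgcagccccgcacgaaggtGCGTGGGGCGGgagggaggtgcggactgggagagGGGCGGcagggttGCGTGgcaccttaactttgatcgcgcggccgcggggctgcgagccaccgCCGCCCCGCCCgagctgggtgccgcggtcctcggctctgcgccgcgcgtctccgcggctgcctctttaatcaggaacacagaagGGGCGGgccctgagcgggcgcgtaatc
Vegfb: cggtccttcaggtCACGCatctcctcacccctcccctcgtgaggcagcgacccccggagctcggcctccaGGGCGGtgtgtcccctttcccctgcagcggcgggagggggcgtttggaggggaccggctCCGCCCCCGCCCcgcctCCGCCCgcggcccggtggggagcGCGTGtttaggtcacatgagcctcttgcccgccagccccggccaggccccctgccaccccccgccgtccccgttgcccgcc
Flt4: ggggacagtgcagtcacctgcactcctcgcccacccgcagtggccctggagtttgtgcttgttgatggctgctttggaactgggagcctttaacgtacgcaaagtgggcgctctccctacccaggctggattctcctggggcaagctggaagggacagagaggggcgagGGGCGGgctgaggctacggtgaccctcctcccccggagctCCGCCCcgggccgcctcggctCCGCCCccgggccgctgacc

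The Nrp2 window held 5 GC boxes and 2 GCGTG cores, the Vegfb window held 4 GC boxes and 2 GCGTG cores, and the Flt4 window held 3 GC boxes and no core. Over all members, whose annotated starts gave 11 windows, a GC box was present in 10, GCGTG in 7 and ACGTG in 1. Of 32851 upstream windows of the same length, 32.7% held a GC box, 28.2% held GCGTG and 16.6% held ACGTG. The AP-1 motif TGACTCA (4.5% of all windows), the CRE core TGACG (17.8%) and TATAAA (12.4%) had no match in the windows printed. A match is a run of letters and not a bound site, and the arrays measured no binding.

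Vegfa encodes the main angiogenic ligand, a target of the hypoxia-inducible factors. The WD-SCC arrays gave 9.54 and 9.98 in OT7, 9.25 in OT14 and 9.38 in OT15. The PD-SCC arrays gave 9.28 and 8.87 in OT7, 8.88 in OT14 and 9.14 in OT15. The ranges met only at their edges, with the highest PD-SCC array just above the lowest WD-SCC array. The PD-SCC mean was lower, 9.04 ± 0.20 against 9.54 ± 0.32 (SD, n = 4 each), and the difference of -0.49 ± 0.17 (SE; 95% interval -0.91 to -0.08) did not pass the threshold (adjusted p = 0.109, limma). It was negative in all 3 lineages, at -0.68, -0.37 and -0.24 in OT7, OT14 and OT15. After cyclic loess it was -0.86 and passed (adjusted p = 0.0248, limma). Without OT7 it was -0.31 (adjusted p = 0.397, limma) and without OT15 -0.58 (adjusted p = 0.151, limma). Over the mean of both probe sets it was -0.20 (adjusted p = 0.247, limma).

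Vegfb encodes a ligand of VEGFR1 that is linked more to fatty acid uptake and survival than to vessel growth. Its WD-SCC arrays read 6.50 and 5.78 in OT7, 5.79 in OT14 and 5.29 in OT15, and its PD-SCC arrays read 6.47 and 7.04 in OT7, 7.05 in OT14 and 7.25 in OT15. Only the first OT7 array of each stage made the ranges overlap, since these nearly tied. The difference was 1.11 ± 0.31 (SE; 95% interval 0.35 to 1.87; adjusted p = 0.07, limma), so the threshold was missed. By lineage (OT7, OT14, OT15) it was 0.62, 1.26 and 1.96. It passed without the first OT7 WD-SCC array (1.36, adjusted p = 0.0417, limma) and with no lineage block (adjusted p = 0.0387, limma), and without OT15 it was 0.83 (adjusted p = 0.159, limma).

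Vegfc encodes the lymphangiogenic ligand of VEGFR3. Vegfc values in WD-SCC were 3.61 and 3.46 in OT7, 3.40 in OT14 and 4.64 in OT15, and those in PD-SCC were 4.22 and 4.48 in OT7, 4.12 in OT14 and 4.68 in OT15. In WD-SCC only the OT15 array was above background, whereas all 4 PD-SCC arrays were. The difference was 0.60 ± 0.17 (SE; adjusted p = 0.0725, limma), with 0.81 in OT7, 0.72 in OT14 and 0.04 in OT15. Without OT15 it was 0.78 and passed (adjusted p = 0.0363, limma), and without OT7 it was 0.38 (adjusted p = 0.495, limma). Vegfd, the gene of the other VEGFR3 ligand and not among the 9, read 4.09 ± 0.57 in WD-SCC and 4.29 ± 0.31 in PD-SCC (SD, n = 4 each) and was above background on 1 of 4 and 4 of 4 arrays (difference 0.20, adjusted p = 0.636, limma).

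Pgf encodes placental growth factor, which binds VEGFR1 and neuropilins and is induced in many tumours and wounds. For Pgf the WD-SCC arrays read 8.04 and 7.78 in OT7, 6.24 in OT14 and 5.42 in OT15. The PD-SCC arrays read 5.91 and 4.37 in OT7, 4.78 in OT14 and 4.98 in OT15. The WD-SCC arrays were highest in OT7, and the OT15 array lay within the range of PD-SCC. The test of a level that differed between lineages did not pass (adjusted p = 0.78, limma). The stage difference was -1.86 ± 0.53 (SE, 95% interval -3.16 to -0.56, adjusted p = 0.0736, limma). OT7, OT14 and OT15 differed by -2.77, -1.46 and -0.44. Without OT7 it was -0.95 (adjusted p = 0.252, limma), and without OT15 it was -2.33 (adjusted p = 0.0648, limma).

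**Figure D2:**
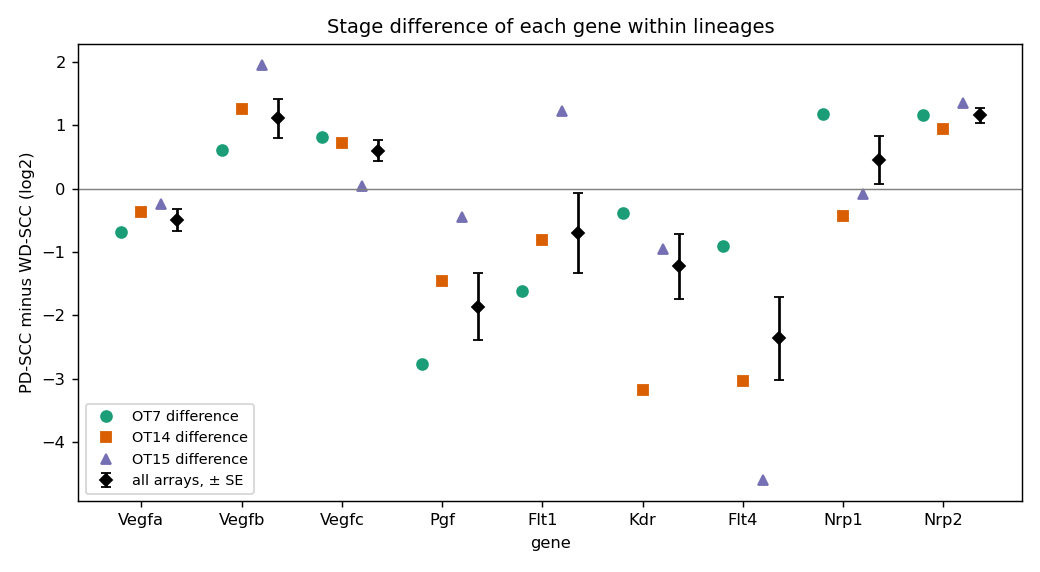
PD-SCC minus WD-SCC on the log2 scale (y axis) for each gene (x axis), within each lineage (coloured points) and over all 8 arrays with its standard error (black). The lineages agree most closely for Nrp2, between 0.94 and 1.35, and spread most for Flt4, from -0.91 to -4.60.

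The receptor genes were highest on single WD-SCC arrays, and none passed the threshold between the stages. In bulk RNA, fewer cells of a type and less RNA per cell cannot be told apart. Flt1 encodes VEGFR1, which also occurs as a soluble decoy. Its WD-SCC arrays read 6.50 and 8.24 in OT7, 7.37 in OT14 and 5.04 in OT15. Its PD-SCC arrays read 6.17 and 5.33 in OT7, 6.56 in OT14 and 6.26 in OT15, inside the range of WD-SCC. The difference was -0.71 ± 0.63 (SE; 95% interval -2.27 to 0.85; adjusted p = 0.471, limma). OT15 went the other way, with 1.22 against -1.62 in OT7 and -0.82 in OT14, and without OT7 the direction turned, to 0.20, while without OT15 it was -1.35 (adjusted p = 0.199, limma).

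Kdr encodes VEGFR2, the main signalling receptor of vascular endothelium. Its WD-SCC arrays read 4.19 and 4.85 in OT7, 7.59 in OT14 and 4.90 in OT15, and its PD-SCC arrays read 4.28 and 3.99 in OT7, 4.41 in OT14 and 3.96 in OT15. The OT14 WD-SCC array stood far above the others, and the remaining arrays of WD-SCC were near those of PD-SCC. The difference was -1.23 ± 0.51 (SE; 95% interval -2.48 to 0.03; adjusted p = 0.164, limma). OT14 alone differed by -3.18, OT7 by -0.39 and OT15 by -0.95. Leaving out OT14 brought the stage difference to -0.57 (adjusted p = 0.207, limma). Leaving out OT7 brought it to -2.06 (adjusted p = 0.227, limma) and leaving out OT15 to -1.32 (adjusted p = 0.261, limma).

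Flt4 encodes VEGFR3, which in the adult marks mainly lymphatic endothelium. Its WD-SCC arrays read 4.63 and 4.43 in OT7, 6.77 in OT14 and 8.32 in OT15, all above background. Its PD-SCC arrays read 3.78 and 3.46 in OT7, 3.74 in OT14 and 3.72 in OT15, and 2 of these 4 were above background. Every PD-SCC array was lower than every WD-SCC array, and the WD-SCC arrays differed more among themselves than those of any other member. The means were 6.04 ± 1.86 in WD-SCC and 3.68 ± 0.14 in PD-SCC (SD, n = 4 each). The difference of -2.36 ± 0.66 (SE; 95% interval -3.98 to -0.74) did not pass the threshold (adjusted p = 0.0702, limma). It passed after scaling to the 75th percentile (adjusted p = 0.0342, limma), but neither without OT15 (-1.62, adjusted p = 0.117, limma) nor without OT7 (-3.81, adjusted p = 0.0738, limma).

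Stage effects were also read within each lineage, from a fit whose spread rests on the OT7 duplicates alone, so that OT14 and OT15 are taken to vary like OT7. Within OT7, 1 of 9 members passed, against 9.07% of all genes, and it was Nrp2 (adjusted p = 0.0369, limma). Within OT14, 1 of 9 passed against 0.842% of all genes, and it was Flt4, which fell by 3.03 (adjusted p = 0.0488, limma). Within OT15, 1 of 9 passed against 1.33% of all genes, and it was again Flt4, which fell by 4.60 (adjusted p = 0.035, limma). The OT15 WD-SCC array behind that fall is the one whose Cd34 was not above background. In OT7 the Flt4 difference of -0.91 did not pass (adjusted p = 0.068, limma).

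The test of whether the stage effect differed between lineages called 0 members and 0% of all genes after adjustment by limma, with 2043 genes at an unadjusted p under 0.05. Of the members, Flt4 (adjusted p = 0.181, limma) and Kdr (adjusted p = 0.274, limma) were among these 2043. The adjusted p of Flt4 equalled the smallest of any gene, but it was a tie. Lyve1 had the same adjusted p with a smaller unadjusted p. The test of a level that differed between lineages at both stages also called 0 members and 0% of all genes, with 1251 genes at an unadjusted p under 0.05. Nrp2 (adjusted p = 0.396, limma) and Vegfc (adjusted p = 0.605, limma) were among these 1251.

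Markers of endothelial cells, which the depletion step should have removed, are given beside the receptor genes. All 25 endothelial markers had a lower mean in PD-SCC, whereas 7211 of all 17097 genes had a higher one. Only 13 of the 25 were above background on at least 4 of 8 arrays. The highest unspiked control was itself lower on the PD-SCC arrays, and its part in the differences of dim markers was not tested. Of the 25 markers 6 fell (24%, adjusted p under 0.05), against 4.81% of all genes, and the median difference was -0.94. The summed linear level of the markers was 3596 to 7090 on WD-SCC arrays and 3006 to 3798 on PD-SCC arrays. Ramp2, an adrenomedullin receptor subunit gene, made up 61.4 to 88.2% of it in WD-SCC and 77.6 to 91.5% in PD-SCC (difference -0.36, adjusted p = 0.22, limma), and the other markers summed to 424 to 2736 and 315 to 674. In WD-SCC 9 to 20 of the 25 were above background, against 8 to 13 in PD-SCC. Tie1, an endothelial receptor, was lower in PD-SCC by at least 12.2-fold, since there no array was above background (adjusted p = 0.0153, limma). The tight junction gene Cldn5 fell by 1.19 (adjusted p = 0.00951, limma) and the TGF-β co-receptor gene Eng fell by 0.87 (adjusted p = 0.0384, limma).

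Pecam1, which encodes the adhesion protein CD31, read 4.34 and 6.71 in OT7, 7.54 in OT14 and 7.40 in OT15 on the WD-SCC arrays, and 3.47 to 4.21 on the PD-SCC arrays (adjusted p = 0.0531, limma). Cdh5, which encodes VE-cadherin, read 4.31 and 8.75 in OT7, 9.80 in OT14 and 9.47 in OT15 in WD-SCC, and 4.52, 4.36, 4.91 and 8.39 in PD-SCC in the same order (adjusted p = 0.177, limma). The OT15 PD-SCC array thus carried Cdh5 while its Pecam1, Kdr and Flt4 were low. Tek, another endothelial receptor gene, was above background on 0 of 8 arrays. The first OT7 WD-SCC array had the lowest Pecam1, Cdh5 and Kdr of the WD-SCC arrays.

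Lyve1, a lymphatic receptor gene, read 4.30 and 4.51 in OT7, 7.49 in OT14 and 8.76 in OT15 in WD-SCC, and 3.65 to 3.83 in PD-SCC (adjusted p = 0.0851, limma). The order of the WD-SCC lineages was that of Flt4, lowest in OT7 and highest in OT15. Prox1, the transcription factor of lymphatic identity, read 3.57 and 3.29 in OT7, 4.68 in OT14 and 5.37 in OT15 in WD-SCC. It was above background on 2 of these 4 arrays. In PD-SCC it read 3.52 and 4.11 in OT7, 3.73 in OT14 and 4.24 in OT15, with 3 arrays above background. Its difference was -0.33 (adjusted p = 0.531, limma), and in OT7 it was 0.39. Of 7 lymphatic markers, 0 passed the threshold in limma (3 had an unadjusted p under 0.05, all lower in PD-SCC), and their summed level was 1106 to 3153 in WD-SCC and 441 to 3663 in PD-SCC. Most of that sum was podoplanin (Pdpn), which basal and tumour keratinocytes can also express, and the other lymphatic markers summed to 97.2 to 584 in WD-SCC and 71.3 to 157 in PD-SCC. In OT15, with 1 array per stage, Flt1 was 1.22 higher in PD-SCC, and its other probe sets differed by 0.21 and -0.21. Pecam1, Tie1 and Lyve1 were lower there, as was Cdh5 (-1.08). What part endothelial or lymphatic cells had in the values of Flt1, Kdr and Flt4 was not tested.

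**Figure D3:**
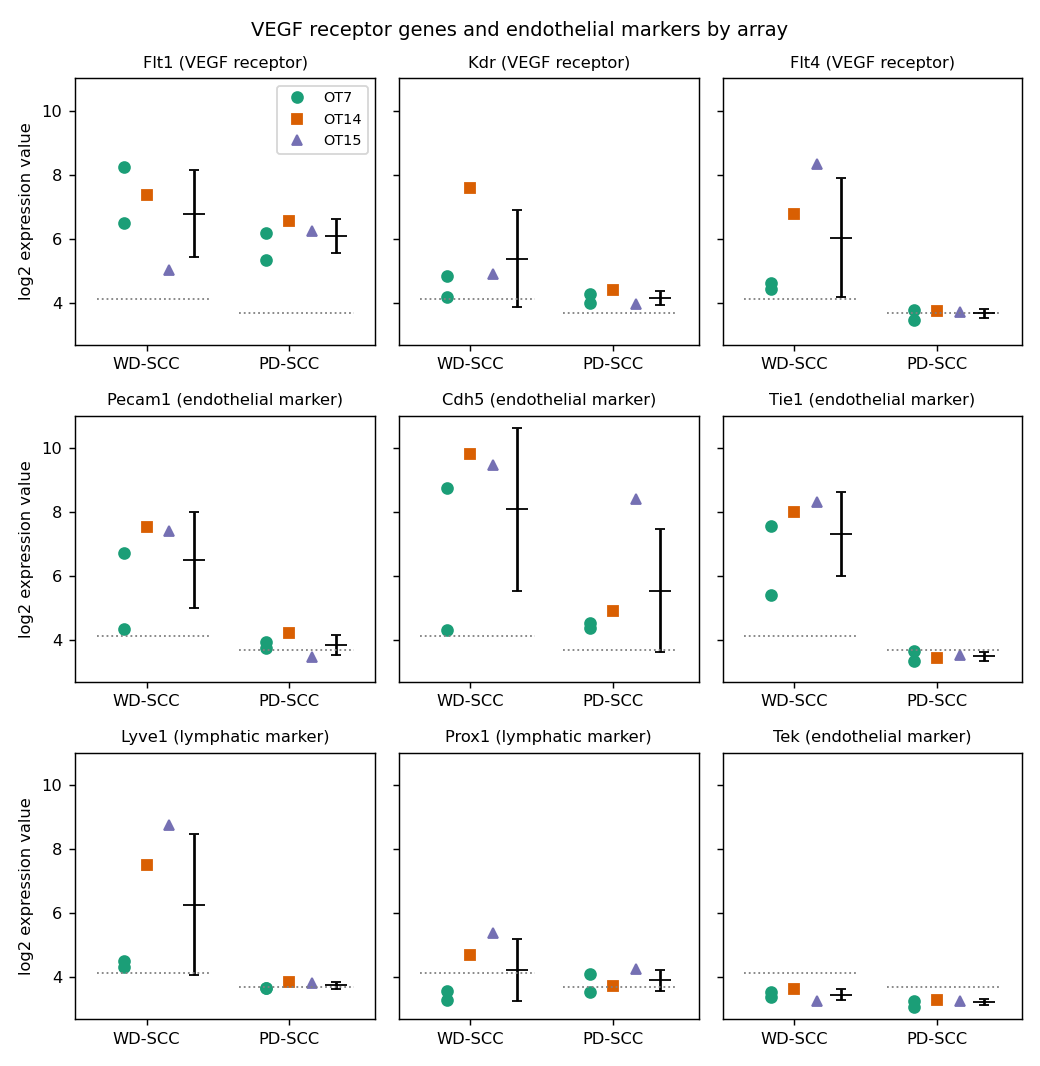
Log2 expression value (y axis) of the 3 receptor genes and of 6 endothelial or lymphatic markers on the WD-SCC and PD-SCC arrays (x axis), with lineages in colour, the stage mean ± SD in black and the mean highest unspiked control dotted. Flt4 and Lyve1 rank the WD-SCC lineages alike, Kdr and Pecam1 are highest on the OT14 array, and Tek is under the dotted line on all 8 arrays.

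Markers of other cell types also differed. Of 22 haematopoietic markers 4 fell, among them Cd68, which fell by 2.79 (adjusted p = 0.0141, limma), Fcer1g, which fell by 2.74, and Cd52, which fell by 1.71, and their summed level was 796 to 1474 in WD-SCC and 329 to 474 in PD-SCC, while Ptprc, the gene of the pan-leukocyte antigen CD45, was above background on 0 of 8 arrays. The haematopoietic markers that fell were 18.2% of their list, against 4.81% of all genes. Only 11 of the 22 were above background on at least 4 of 8 arrays. Of 15 keratinocyte markers 9 fell (60%, against 4.81% of all genes). The one with the smallest p was the basal keratin gene Krt5 (11.26 ± 0.49 to 4.16 ± 0.17, SD, n = 4 each, adjusted p = 9.11e-05, limma). The junction genes Dsp and Cldn4 fell by 7.49 and 7.37, and Krt14, whose promoter drives the transgene, fell by 5.01 (adjusted p = 0.00764, limma). Of 14 fibroblast markers 1 fell, Thy1 (7.14%, against 4.81% of all genes), with a summed level of 801.5 to 9254 in WD-SCC and 1510 to 3667 in PD-SCC. Of 8 pericyte markers 0 passed in limma (1 higher and 5 lower at an unadjusted p under 0.05), with a summed level of 144 to 196 in WD-SCC and 135 to 450 in PD-SCC. The part of these cells in the values of the VEGF genes was not tested.

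Several members have more than 1 probe set, and these did not always agree. A test over all probe sets called 8.34% of them, and 1 of the 15 member probe sets, the first of Nrp2 (1426528_PM_at, adjusted p = 0.0068, limma). The second Nrp2 probe set (1435349_PM_at) read 6.76 and 7.83 in OT7, 8.44 in OT14 and 8.82 in OT15 in WD-SCC. In PD-SCC it read 9.48 and 9.71 in OT7, 9.46 in OT14 and 9.49 in OT15. Its stages did not overlap either, and its difference of 1.57 ± 0.39 (SE, adjusted p = 0.0663, limma) had the same direction, but it ranked the WD-SCC lineages in the opposite order, with OT15 highest. The second Vegfa probe set (1420909_PM_at) differed by 0.09 (adjusted p = 0.669, limma) where the first differed by -0.49. The other Flt1 probe sets differed by -0.04 (adjusted p = 0.937, limma) and -0.87 (adjusted p = 0.28, limma). Of the other Nrp1 probe sets, 1448943_PM_at was above background on 0 of 8 arrays and 1448944_PM_at differed by 0.20 (adjusted p = 0.574, limma). Which transcripts each probe set reads was not examined.

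**Figure D4:**
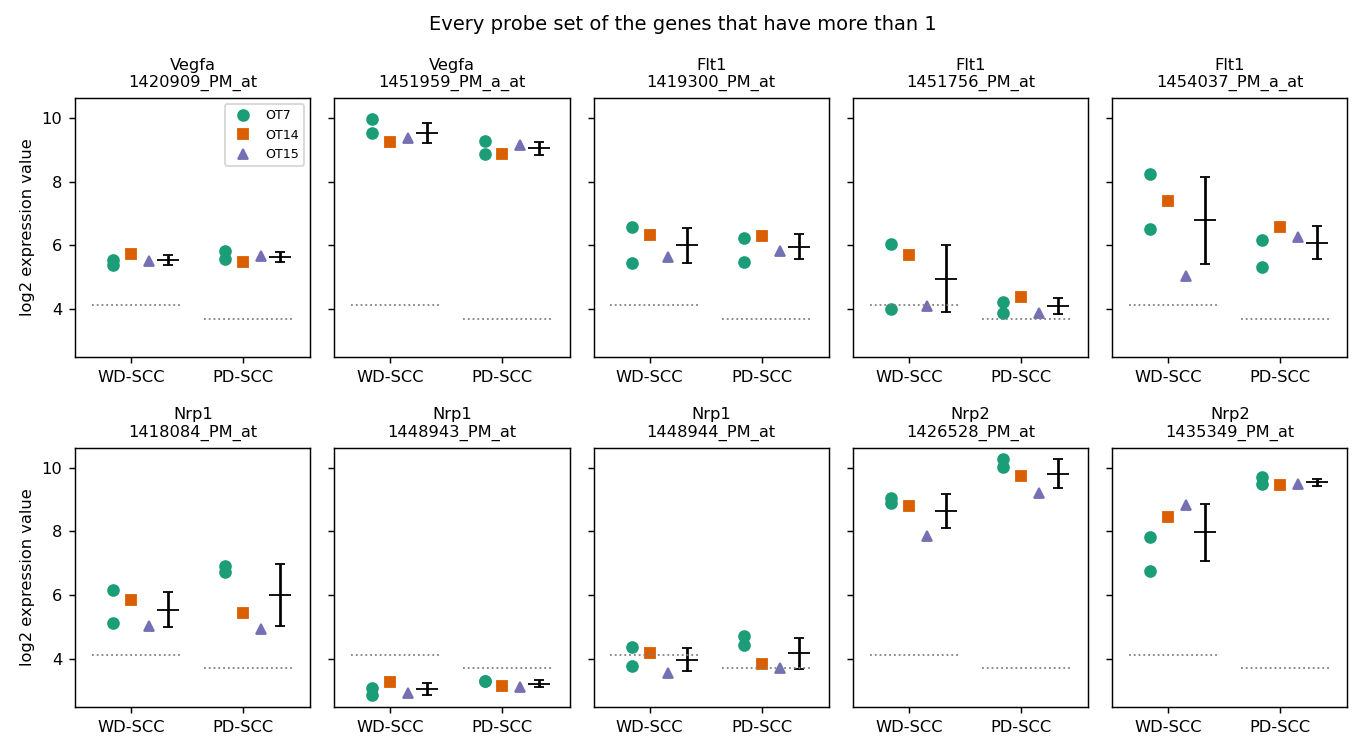
Log2 expression value (y axis) of every probe set of Vegfa, Flt1, Nrp1 and Nrp2 on the WD-SCC and PD-SCC arrays (x axis), with lineages in colour, the stage mean ± SD in black and the mean highest unspiked control dotted. Both Nrp2 probe sets are higher in PD-SCC, whereas only 1 of the Vegfa probe sets is lower there.

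Genes of VEGF signalling, a list that also holds the ligand gene Vegfd and the endothelial markers Cdh5 and Ptprb, moved in both directions. Of 43 measured genes of VEGF signalling, 4 rose and 4 fell (9.30% each, against 7.78% and 4.81% of all genes), and the median difference was -0.21. A higher mean in PD-SCC was found for 12 of the 43, against 7211 of all 17097 genes. At an unadjusted p under 0.05, 7 were higher and 14 lower (limma). Prkca, a protein kinase C gene, rose by 1.96 ± 0.16 (SE, adjusted p = 0.0033, limma). The kinase gene Akt1 rose by 1.35 ± 0.16 (SE, adjusted p = 0.00797, limma). Myof, which encodes myoferlin, a membrane protein that stabilises VEGFR2, rose by 1.72 ± 0.15 (SE, adjusted p = 0.0045, limma). Pik3r1, a regulatory subunit gene of PI3-kinase, was the other that rose. The adaptor gene Nck2 fell by 1.15 ± 0.10 (SE, adjusted p = 0.00416, limma), and Nrarp, Pxn and Gipc1 fell too. Plcg1, the phospholipase that VEGFR2 activates, did not pass (difference -0.20, adjusted p = 0.278, limma). After cyclic loess the split was 4 up and 9 down.

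Semaphorins and plexins share the neuropilins with the VEGFs. Of 40 measured genes 2 rose and 3 fell (5% and 7.5%, against 7.78% and 4.81% of all genes), with a median difference of -0.25. Sema3a, the ligand of neuropilin 1, was at least 1.37-fold higher in PD-SCC and was above background on 0 of 4 WD-SCC arrays and on all PD-SCC arrays (adjusted p = 0.0106, limma). Sema5a rose by 1.72 (adjusted p = 0.0217, limma), Sema4d fell by 1.59 (adjusted p = 0.0469, limma), and Gipc1, which binds the tail of neuropilins, fell by 1.10 (adjusted p = 0.0348, limma). The neuropilin 2 ligand gene Sema3f (-0.98, adjusted p = 0.192, limma), the neuropilin ligand gene Sema3c (-2.13, adjusted p = 0.118, limma) and the plexin genes Plxna1 (0.65, adjusted p = 0.138, limma) and Plxnd1 (-0.79, adjusted p = 0.157, limma) did not pass.

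Regulators of VEGF transcripts include transcription factors, RNA-binding proteins and the oxygen-sensing enzymes. Of 33 measured genes 5 rose and 3 fell (15.2% and 9.09%, against 7.78% and 4.81% of all genes), with a median difference of 0.28. But after cyclic loess 1 rose and 4 fell. Arnt, the common partner of the hypoxia-inducible factors, rose by 0.89 (adjusted p = 0.0163, limma), and Egln1, a prolyl hydroxylase that marks them for decay, rose by 1.19 (adjusted p = 0.0183, limma). Epas1, which encodes HIF-2α and is strongly expressed in endothelium, fell by 1.97 (adjusted p = 0.027, limma), with 8.29 on the OT14 WD-SCC array against 5.72 to 6.70 on the others of that stage. The nuclear receptor gene Esrra fell by 1.09 (adjusted p = 0.00704, limma). Hif1a read 7.23 ± 0.39 in WD-SCC and 7.35 ± 0.52 in PD-SCC (SD, n = 4 each, adjusted p = 0.819, limma).

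The median difference of 28 hypoxia target genes was 0.07, and 4 were higher and 7 lower in PD-SCC at an unadjusted p under 0.05 (limma). After adjustment 0 rose and 3 fell (10.7%), against 7.78% and 4.81% of all genes. The 3 were the stress gene Ndrg1, which fell by 2.74 (adjusted p = 0.00987, limma), the glycolysis regulator gene Pfkfb4, which fell by 4.01 (adjusted p = 0.0131, limma), and the mitophagy gene Bnip3l, which fell by 2.45 (adjusted p = 0.0184, limma). Among 37 other angiogenic and anti-angiogenic factors 2 rose and 1 fell (5.41% and 2.70%, against 7.78% and 4.81% of all genes). Their median difference was 0.10. Spry4, an inhibitor of receptor tyrosine kinase signalling, rose by 2.35 (adjusted p = 0.011, limma). The growth factor gene Pdgfc was at least 1.52-fold higher in PD-SCC and was above background on 0 of 4 WD-SCC arrays (adjusted p = 0.0402, limma). Angpt4 fell by 0.37 (adjusted p = 0.049, limma), with 1 array of each stage above background. Of 3 other growth factor receptor genes, Egfr (-0.88, adjusted p = 0.0667, limma) and Fgfr1 (0.65, adjusted p = 0.335, limma) did not pass. Pdgfra did not pass either (adjusted p = 0.0813, limma), and it was above background on 0 of 4 WD-SCC and 4 of 4 PD-SCC arrays, so no fold is given.

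**Figure D5:**
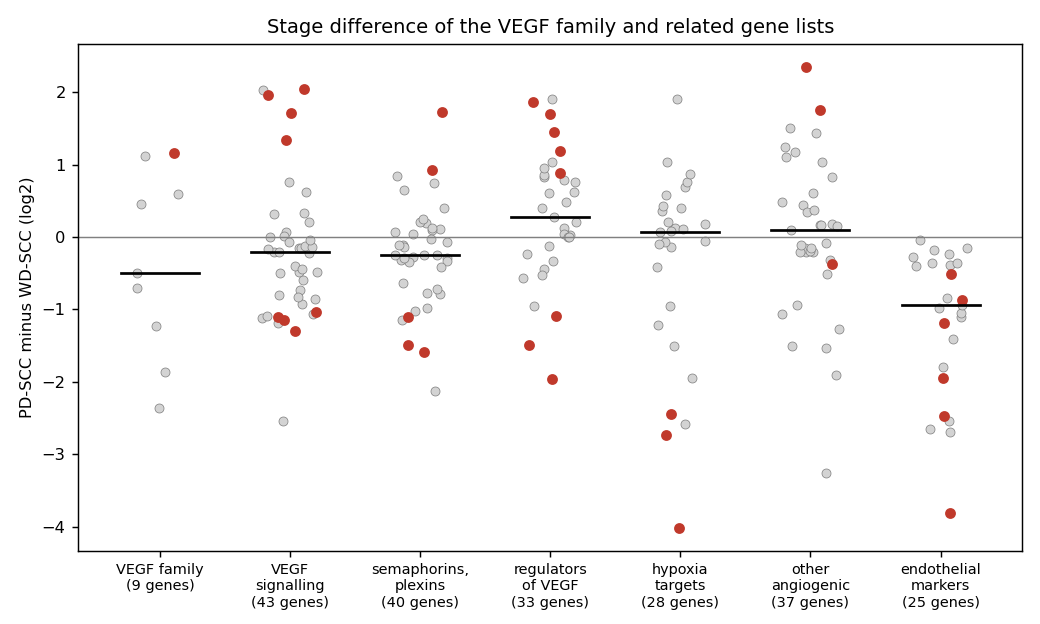
PD-SCC minus WD-SCC on the log2 scale (y axis) of each gene in 7 lists (x axis), with genes past the threshold in red and the list median as a black line. Red points lie on both sides of 0 in 4 lists (VEGF signalling, semaphorins and plexins, regulators, other angiogenic factors), only above it in the VEGF family (Nrp2) and only below it among hypoxia targets and endothelial markers.

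The genes whose pattern over the 8 arrays was most like each member were taken from 3921 genes with a mean of at least 6, by Pearson's r, which here also carries the stage difference and is given as a description. Nrp2 was followed most closely by the translation stress gene Gcn1 (0.987), the proteasome gene Psma3 (0.987) and Fam114a1 (0.985). Flt4 was followed by Nrxn2 (0.989), the lymphatic chemokine gene Ccl21b (0.980) and Necap2 (0.978). Ccl21b read 5.89 and 6.23 in OT7, 9.94 in OT14 and 10.54 in OT15 in WD-SCC and 4.18 to 4.60 in PD-SCC. Kdr was followed by the kinase gene Snrk (0.961), Notch1 (0.926) and the adhesion gene Ceacam1 (0.921), which were all highest on the OT14 WD-SCC array. Vegfb was followed by Anapc11 (0.983), the EGF family gene Ereg (0.978) and Gins2 (0.975). Vegfa was followed by Gm14057 (0.946), Prrg4 (0.935) and the chaperone gene Hsp90aa1 (0.920). Vegfc was followed by Kat2a (0.968), Atp5g2 (0.967) and Rgs2 (0.928), and Pgf by Kansl1 (0.978), Dusp7 (0.956) and Fads3 (0.934). Flt1 was followed by Paxx (0.928), Clstn1 (0.888) and Eif4g2 (0.868), and Nrp1 by the ion transporter gene Slc12a2 (0.955), Kmt2b (0.950) and Pip5k1a (0.943).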

How the data were processed

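The 8 arrays were single-colour Affymetrix arrays, 4 per stage. The log2 values deposited by the authors, 1 per probe set and array between 2.4 and 13.2, come from RMA in the affy package, per the submitters' processing notes. RMA subtracts background, applies quantile normalisation and reduces each probe set to 1 value. Its version and chip definition, not given in the sources used here, are unknown. Without scanner files these steps could not be varied. Of 45141 probe sets, 104 were controls and 28898 had 1 gene symbol in the platform annotation. Symbols were updated through a RefSeq table (GRCm38.p6; 99.1% of genes matched), and the probe set with the highest mean stood for each of 17097 genes.

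The stage effect was fitted with limma 3.58.1 (lmFit, eBayes, two-sided) in R 4.3.3 with lineage as a fixed block on all genes, with Benjamini-Hochberg adjusted p and a threshold of 0.05. Plots used Python 3.11.15 and matplotlib 3.10.9. Replicate numbers count arrays within a lineage and stage, so arrays were paired by lineage, from the series design. Deviations from the stage means correlated at -0.04, 0.02 and 0.06 between stages of OT7, OT14 and OT15. A gene at or under the highest unspiked control on every array of a stage has a bound, computed from the brighter stage's mean and, per dim array, the higher of control and gene.

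The members, the lists and the rule for naming genes were chosen with earlier results of these data known. The rule took all members and their probe sets, up to 4 called genes of each pathway list and 3 of each marker list with the smallest p, a set of defining markers and VEGF partners whatever their values, and the 3 genes most like each member. Pik3r1, Pxn, Nrarp, Sema4d and the brightest markers Ramp2, Pdpn and Acta2 were named outside it, with their values known. One gene that the rule took is not reported here. Lists were described by counts and medians. The fits were tested on simulated data with a common spread for all genes. The simulated shifts were larger than the stage difference of any member over all arrays. That test therefore does not show how well differences of the size reported here are found. Alternatives were other scalings, averaging a gene's probe sets, dropping dim genes, a random or no block, averaged OT7 arrays, array weights, another prior, a fold threshold and leaving out each array or lineage.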

Additional observations from a re-analysis of the deposited data

How the results depend on the processing

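Every member kept its direction under the 20 alternatives except Flt1 (0.20) and Nrp1 (-0.26) without lineage OT7. Some alternatives coincide, since leaving out 1 array of OT14 or OT15 leaves out the lineage. Nrp2 kept its call in 17 of 20, with values of 0.79 to 1.36, and missed it with no replicate block (lineage left out, adjusted p = 0.0531, limma), with OT7 arrays averaged (0.0532) and without lineage OT7 (0.103). With no replicate block 1 member and 2123 genes passed, the member being Vegfb. The count of members past the threshold was 2 with 75th percentile scaling, cyclic loess or lineage as a random block, 4 with a filter on dim genes (Nrp2, Vegfb, Pgf and Flt4), 3 with a trended and robust prior (Nrp2, Pgf and Flt4), 2 without lineage OT15, 0 without lineage OT7 and 0 with OT7 arrays averaged, and leaving out single arrays gave 1 to 2. The count over all genes, 2154, became 401 with OT7 averaged, 1240 without OT14, 1282 without OT15 and 246 without OT7, and 886 to 1689 without single arrays. These alternatives fit fewer arrays. Averaging OT7 left 3 called genes of VEGF signalling, 0 of semaphorins and plexins, 1 regulator, 1 hypoxia target and 0 other angiogenic factors. Cyclic loess gave 13 for VEGF signalling and 5 regulators. Leaving out OT14 or OT15 gave 5 regulators and 3 semaphorin or plexin genes each, and leaving out OT7 gave 0 for regulators, semaphorins and plexins, and VEGF signalling. For the scalings, the prior and the filter the cause was not tested. Vegfc in WD-SCC and Flt4 in PD-SCC lie at the controls, so their differences are limited by signal over background.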

Other observations

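Itga6 and Cd34, whose products the sort used, differed in OT15 more than elsewhere. Cd34 read 3.58 on the OT15 WD-SCC array and 8.72 on the OT15 PD-SCC array, against 6.72 to 7.96 on the others. Itga6 read 5.32 and 7.85 on the same arrays, while it was higher in WD-SCC in OT7 (8.15 and 7.99 against 6.67 and 6.14). The test of whether the stage effect differed between lineages did not pass for either (adjusted p = 0.186 for Cd34 and 0.184 for Itga6, limma). Krt14, whose promoter drives the transgene, was 7.02 and 6.94 in OT7 PD-SCC but 4.39 in OT14 and 4.57 in OT15.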
